A study of Mus musculus with 16 samples.

Results

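Clustered histone genes encode the linker histone H1 and the core histones H2A, H2B, H3 and H4, the proteins that package DNA into nucleosomes. The genes of both deposited count tables whose names began with Hist1h, Hist2h, Hist3h or Hist4h were taken, which gave 69 of the 24974 genes present in both tables. By type these were 6 H1, 19 H2A, 19 H2B, 12 H3 and 13 H4 genes. 55 lay on chromosome 13, 10 on chromosome 3, 3 on chromosome 11 and 1 on chromosome 6, in the mm10 build. 2 of them, Hist3h2bb-ps and Hist1h2al, are listed as pseudogenes by RefSeq.

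Most of these genes are copied into RNA during S phase, when new DNA needs new nucleosomes. Their messenger RNAs as a rule carry no poly(A) tail and end instead in a short stem-loop that is bound by the protein SLBP, although some members also make polyadenylated RNA, for instance in cells that have stopped dividing. In the thymus, immature double-positive (DP) cells derive from a burst of division, and single-positive CD8 cells follow them.

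The study compared thymocytes of mice with and without a conditional deletion of Tox4, a chromatin-associated HMG-box protein, in DP cells and in sorted CD8 cells (TCRβ+CD8+). Controls carried the floxed Tox4 alleles without Cre (Tox4;F/F) and knockouts carried them with Lck-cre (Tox4;F/F;Lck-cre), here called cKO. The loxP sites flank exons 4 to 6, and the proximal Lck promoter starts deletion at the DN3 stage, so that only cells of the T lineage from that stage on lose the gene. The mice were littermates matched for gender, 6 to 8 weeks old, on a C57BL/6 background. There were 3 DP control, 3 DP cKO, 5 CD8 control and 5 CD8 cKO samples, 16 in all, and the replicate numbers run in parallel in the genotypes of a cell type.

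RNA was captured by its poly(A) tail before the strand-marking libraries were made, so the counts cover the polyadenylated share of histone RNA and whatever else came through the capture. Total counts were 16524506, 18484568 and 17221704 in DP control samples 1 to 3 and 21154634, 14583336 and 25981683 in DP cKO samples 1 to 3. They were 9420085, 10882293, 9899833, 10949265 and 13530783 in CD8 control samples 1 to 5 and 11687062, 11828492, 8905915, 8894000 and 8514135 in CD8 cKO samples 1 to 5. Every DP library was deeper than every CD8 library. Levels are given as CPM, counts scaled to a common library size after TMM normalization of all 16 samples, and as TPM, which also divides by gene length, where genes are set against each other.

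The cell type labels were checked against marker genes. Of 8 DP markers 7 differed between CD8 and DP controls, 6 of them lower in CD8, and of 9 CD8 single-positive markers 8 differed, 7 of them higher in CD8. By the same rule 5347 of all 12131 genes tested (44.1%) differed, 2782 lower and 2565 higher in CD8. Cd8a and Cd8b1 are in both lists. Ccr7, a chemokine receptor of mature thymocytes, was at 30.9, 20.2 and 16.8 CPM in the DP controls and at 378, 309, 697, 794 and 608 CPM in the CD8 controls. The 4 erythroid markers had no count in any sample, but Hba-a1 and Hba-a2 overlap in the annotation and globin copies are much alike, so these zeros are no check on erythroid cells. The 4 B cell markers found in the tables summed to 21.7, 28.2 and 18.2 CPM in DP controls, 16.3, 18.6 and 19.8 CPM in DP cKO samples, 24.7, 10.7, 10.1, 7.81 and 11.1 CPM in CD8 controls and 20.2, 15.4, 8.43, 13.3 and 12.5 CPM in CD8 cKO samples. Cd79b, of the B cell receptor, was the most abundant of these, with a mean of 16.8 CPM in DP controls, and none was at 0 in a whole group. Of the 4 thymic epithelium markers, Foxn1, the factor that defines these cells, had no count in DP and 22, 0, 0, 0 and 0 counts in CD8 controls 1 to 5. In such bulk RNA fewer cells of a type cannot be told apart from less RNA per cell.

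Some libraries stood apart. CD8 control 1 had counts in 17741 genes, against 13708 to 14194 in the other CD8 controls. CD8 samples 1 and 2 of both genotypes were apart from samples 3 to 5 in marker genes: 4 of 8 DP markers were higher in them, without overlap, and 3 of 9 CD8 single-positive markers (Ccr7, Klf2 and S1pr1) were lower. Cd4 was at 61.6, 66.4, 6.02, 3.67 and 10.5 CPM in CD8 controls 1 to 5 and 68.4, 77.7, 6.38, 5.88 and 7.28 CPM in cKO samples 1 to 5, and Rag1 at 93.0, 122, 22.3, 12.1 and 15.6 CPM and 78.8, 99.1, 24.6, 34.7 and 23.4 CPM. All 8 DP markers summed to 4942, 4174, 3833, 3613 and 3713 CPM in CD8 controls and 3819, 3846, 3297, 4342 and 3359 CPM in CD8 cKO samples. Most of these sums came from Cd8a, Cd8b1 and Cd3e, which CD8 cells also make. The summed histone level of these 4 samples, 27.0 to 40.5 CPM, lay within that of the 6 others, 22.8 to 41.0 CPM. The part of DP cells in single CD8 values was not tested. In DP, samples number 1 of both genotypes had the lowest summed histone level of their group. Across all genes, deviations of same-numbered DP samples correlated with r = 0.643, 0.120 and 0.290 for numbers 1 to 3. Control 2 with cKO 3 reached 0.324 and control 3 with cKO 2 reached 0.297, so numbers 2 and 3 did not single out partners.

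Tox4 itself was at 149, 165 and 175 CPM in DP control samples 1 to 3 and at 128, 135 and 129 CPM in DP cKO samples 1 to 3. Every DP cKO sample lay below every DP control sample. In CD8 it was at 199, 191, 204, 207 and 183 CPM in controls 1 to 5 and at 173, 189, 178, 237 and 168 CPM in cKO samples 1 to 5, and these groups overlapped. The log2 change was -0.32 (SE 0.11, adjusted p = 0.381) in DP and -0.06 (SE 0.10, adjusted p = 0.979) in CD8 in edgeR's quasi-likelihood test. Gene counts include exons outside the floxed part, so they cannot tell an RNA that lacks exons 4 to 6 from a whole one. At the protein level, the paper judged the deletion efficient from Western blots of unsorted and sorted thymocytes.

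The stem-loop was looked for in the GENCODE vM21 transcripts of the 69 members, as a perfectly paired stem of 6 bases beginning with GG around a loop of 4 bases beginning with TT, within 150 bases after the stop codon. It was found in 44 members. Anywhere in a transcript, a wider search than the one after the stop codon, 86 of 21810 other protein-coding genes (0.394%) held a match. Of the 25 members without one, 15 have annotated transcripts that end within 16 bases of the stop codon, too short to hold it, 2 have no coding transcript, and 8 have longer ones, among them Hist2h2be. 6 different 16-base stem-loops occurred. The sequence shared by 26 members, of all types but H4, is that of Hist3h2ba, Hist3h2a, Hist1h1c and Hist1h2ad. The one with A at the last base of the loop was found in 6 members, such as Hist1h2bb, and H4 genes carried stems of their own, such as those of Hist1h4c (7 members) and Hist1h4i (2 members). They are printed 5′ to 3′ in mm10 with the stem-loop in capitals and 5 bases on each side, because they mark where the counted gene models end and how alike the members are.

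Hist3h2ba, chr11:58949344-58949369, plus strand: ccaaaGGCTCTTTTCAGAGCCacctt
Hist3h2a, chr11:58955167-58955192, plus strand: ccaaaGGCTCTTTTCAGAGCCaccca
Hist1h1c, chr13:23739507-23739532, plus strand: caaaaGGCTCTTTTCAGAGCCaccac
Hist1h2ad, chr13:23574890-23574915, plus strand: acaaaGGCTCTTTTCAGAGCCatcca
Hist1h2bb, chr13:23747198-23747223, plus strand: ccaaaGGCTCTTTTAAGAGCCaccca
Hist1h4c, chr13:23698084-23698109, minus strand: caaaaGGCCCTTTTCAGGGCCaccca
Hist1h4i, chr13:22040961-22040986, minus strand: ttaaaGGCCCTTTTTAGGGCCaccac

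These are exonic positions just after the coding sequence. In 39 of the 44 members the gene model used for counting ended under 100 bases past the stem-loop, so that reads from longer, polyadenylated forms that run further were not counted there. These 39 members held 70.5% of the histone counts in DP and 53.6% in CD8. An AATAAA hexamer, the usual signal for poly(A) addition, followed the stem-loop in a transcript annotation of 13 members. What share of the counted RNA carried a poly(A) tail was not tested.

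The members are also alike among themselves. The share of a gene's 50-base words that occur in another gene had a median of 44.1% in the 59 members with a count and of 91.4% in the 10 members without any count in the 16 samples. By type the median was 1.13% in H1, 67.6% in H2A, 44.1% in H2B, 62.0% in H3 and 39.5% in H4 genes. Of the 10 genes at 0, 9 have exons that overlap those of another gene on the same strand, such as Hist2h2aa1 with Hist2h2aa2 and Hist2h3c1 with Hist2h3c2, and the remaining gene was Hist1h2ba. How reads that fit several places were counted is not given in the sources used here. A 0 is therefore no measure of RNA for the 9 members that overlap another gene. Overlap did not always go with a 0, as Hist1h4n, which overlaps Hist1h4m, had 27 counts. The counts of H2A and H3 members in particular may be split or lost between copies.

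Promoters of 61 members were found in the RefSeq table (GRCm38.p6), and the 250 bases before each start were searched on both strands for 4 motifs, keeping matches where motifs overlapped. CCAAT occurred in 50 of the 61 (82.0%, against 33.8% of 32851 promoters of the same length), in all 6 H1, 17 H2A and 16 H2B promoters and in 3 of 12 H4 promoters. TATAAA occurred in 29 (47.5%, against 12.4%). The octamer ATTTGCAT occurred in 14 (23.0%, against 1.601%), 7 of them H2A and 7 H2B genes. TTTCGCGC or TTTGGCGC, forms of the E2F site, occurred in 7 (11.5%, against 0.654%), again in H2A and H2B genes alone. 11 neighbouring pairs of H2A and H2B genes stood head to head, with 172 to 305 bases between their starts. A single site in such a shared region can count for both genes, as did the octamer of Hist1h2bk and Hist1h2ah and the E2F form of Hist1h2bj and Hist1h2ag. The numbers above are therefore of promoters and not of separate sites. As an example of such a shared region, the 250 bases before Hist1h2bj, which face Hist1h2ag, are printed with those before Hist3h2ba, the member with the highest TPM in DP controls. Capitals mark the matches to the 4 motifs on either strand.

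Hist3h2ba, chr11:58948661-58948910, plus strand: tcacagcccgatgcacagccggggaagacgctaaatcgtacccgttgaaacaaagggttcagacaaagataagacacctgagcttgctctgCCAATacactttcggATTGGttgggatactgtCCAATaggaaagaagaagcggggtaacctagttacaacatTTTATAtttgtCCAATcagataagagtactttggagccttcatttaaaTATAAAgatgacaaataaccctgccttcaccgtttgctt
Hist1h2bj, chr13:22042948-22043197, plus strand: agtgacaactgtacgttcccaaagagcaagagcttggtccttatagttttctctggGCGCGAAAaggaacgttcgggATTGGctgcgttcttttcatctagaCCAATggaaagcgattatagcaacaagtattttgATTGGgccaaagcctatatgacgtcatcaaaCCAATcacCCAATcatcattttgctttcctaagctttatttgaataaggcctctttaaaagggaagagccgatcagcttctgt

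Both lie upstream of the gene they are named for. The first 2 bases of the Hist1h2bj region lie within the counted gene model of Hist1h2ag, on the other strand. The Hist3h2ba promoter held 4 matches to CCAAT and 2 to TATAAA, and the Hist1h2bj promoter 5 to CCAAT and 1 to the E2F forms. A match is a description of the letters and not of binding.

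Histone RNA was a small share of these libraries. The 69 genes took 0.0152% of all counts in DP and 0.00307% in CD8. Their summed level was 95.2, 148 and 155 CPM in DP controls 1 to 3 and 118, 154 and 199 CPM in DP cKO samples 1 to 3. It was 40.5, 27.0, 28.3, 30.1 and 30.4 CPM in CD8 controls 1 to 5 and 33.2, 28.9, 33.0, 41.0 and 22.8 CPM in CD8 cKO samples 1 to 5. Every DP sample lay above every CD8 sample, while control and cKO overlapped within each cell type. The highest DP value was that of cKO 3, also the deepest library, and the lowest that of control 1.

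**Figure D1:**
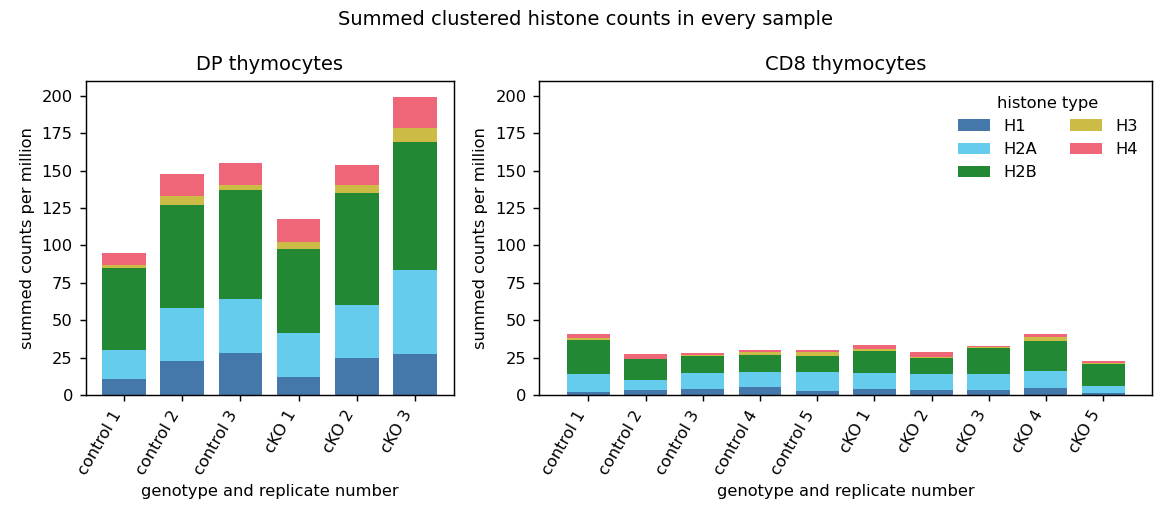
Summed CPM of the 69 clustered histone genes in every sample, stacked by histone type, for DP (left) and CD8 (right) on the same scale. DP samples lay between 95.2 and 199 CPM and CD8 samples between 22.8 and 41.0 CPM.

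As the stacked bars show, H2B genes made up the largest share of the histone counts in both cell types, 47.3% in DP and 45.7% in CD8. H2A genes followed with 24.8% and 33.1%, H1 genes with 14.2% and 10.5%, H4 genes with 10.2% and 6.58%, and H3 genes with 3.51% and 4.18%. A few genes carried the sums. In DP these were Hist2h2be with 18.2% of the histone counts, Hist3h2ba with 17.6%, Hist3h2a with 16.6%, Hist1h1c with 9.28% and Hist1h4i with 5.68%. In CD8 Hist2h2be took 34.3%, Hist3h2a 24.6% and Hist1h1c 7.51%. The 3 genes of the Hist3 cluster held 34.6% of the histone counts in DP and 28.5% in CD8, and the 55 genes of the Hist1 cluster 46.1% and 34.4%.

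Per length, Hist3h2ba and Hist3h2a led in DP controls, with mean TPM of 157 and 133. Hist1h1c, the somatic H1.2 gene, followed at 55.7, Hist1h4i at 51.1, Hist2h2be at 29.5, Hist1h2ag at 25.6 and Hist1h2bg at 24.0. The highest H3 genes, Hist1h3e and Hist1h3a, had mean TPM of 5.19 and 4.71, and the median over all 69 members was 2.14. In CD8 controls Hist3h2a led at 49.6, followed by Hist2h2be at 12.6, Hist1h1c at 10.2 and Hist3h2ba at 6.53, over a median of 0.588. 47 members had a count in every DP sample and 8 in every CD8 sample. After the filter on low counts 30 members were tested in DP (5 H1, 4 H2A, 11 H2B, 4 H3 and 6 H4) and 4 in CD8 (Hist1h1c, Hist3h2a, Hist3h2ba and Hist2h2be), so counts below are over these and not over all members.

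The DP comparison asked whether loss of Tox4 goes with a change of histone RNA. None of the 30 members tested passed the rule for a call, which asked for an adjusted p below 0.05, a 1.5-fold difference or more and a mean TPM no lower than 1, in edgeR, where 17 of all 11748 genes (0.145%) did. At an unadjusted p below 0.05 there were 2 members, Hist1h2ad and Hist1h3i, and 1079 of the 11748 genes. edgeR with RLE size factors, DESeq2, over 58 members, and edgeR with the replicate number as a block, also called 0 members, where they called 15, 160 and 131 of all genes. Most fitted changes pointed up: 26 of the 30 were above 0, against 49.8% of all genes. Without cKO 3 these were 16 of 30, against 51.2%. With all samples their median log2 change was 0.32 against a value within 0.01 of 0 over all genes. The median was 0.06 without cKO 3, over 30 members tested, and 0.64 without control 2, where the filter kept 35 members. A member can pass the filter through its cKO counts alone, which favours members that are higher in cKO. These counts describe the members tested and not all 69. Without the filter edgeR had 48 of 58 members above 0, against 49.6% of all genes, with a median of 0.49. With at least 10 counts in every sample 12 of 14 were above 0, against 49.5%, with a median of 0.16.

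Of the types, the H2A and H3 genes tested had the highest median log2 changes, over 4 of 19 and 4 of 12 members. The types were not compared by a test. Over all members, the mean log2 difference of same-numbered samples (± SD, n = 3) was 0.06 ± 0.11 for H1, 0.43 ± 0.36 for H2A and 0.13 ± 0.10 for H2B. It was 0.83 ± 0.89 for H3 and 0.42 ± 0.55 for H4, where the spread exceeded the mean. Hist1h2ad, an H2A gene, had 2, 4 and 4 counts in controls 1 to 3 and 12, 14 and 35 in cKO samples 1 to 3, or 0.114, 0.210 and 0.229 CPM and 0.546, 0.912 and 1.35 CPM. Every cKO sample was above every control. The log2 change was 2.31 (SE 0.57, adjusted p = 0.214), and DESeq2 gave an adjusted p of 0.153. Hist1h2ag, the H2A gene across from Hist1h2bj, was at 1.31, 8.70 and 2.46 CPM in controls and 3.55, 4.63 and 17.1 CPM in cKO samples. The groups overlapped, with cKO 3 far above the rest and control 2 second, and the log2 change was 1.01 (SE 0.74, adjusted p = 0.753). Hist3h2a was at 16.7, 22.2 and 30.3 CPM in controls and 23.0, 26.0 and 28.2 CPM in cKO samples, all cKO values inside the range of the controls, with a log2 change of 0.16 (SE 0.21, adjusted p = 0.888). The 4 H2A genes tested had a median log2 change of 0.78, and all 4 were above 0.

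Hist1h3i, an H3 gene, had 6, 10 and 5 counts in controls and 17, 14 and 29 in cKO samples, or 0.342, 0.524 and 0.287 CPM and 0.774, 0.912 and 1.12 CPM. All cKO values were higher than all control values, and the log2 change was 1.26 (SE 0.45, adjusted p = 0.408). Hist1h3a was at 0.455, 0.995 and 0.974 CPM in controls and 0.546, 1.11 and 2.44 CPM in cKO samples, and Hist1h3c at 0.285, 0.943 and 0.172 CPM and 0.683, 0.847 and 1.198 CPM. In both, sample 3 of the cKO was the highest of the 6 and the groups overlapped, with log2 changes of 0.76 (SE 0.58, adjusted p = 0.769) and 0.94 (SE 0.62, adjusted p = 0.717). With Hist1h3e, at 0.37 (SE 0.64, adjusted p = 0.922), the 4 H3 genes tested had a median of 0.85, and all 4 were above 0.

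The abundant H2B genes differed little. Hist2h2be was at 33.4, 24.5 and 21.4 CPM in controls and 29.1, 27.6 and 25.7 CPM in cKO samples, with all cKO values inside the range of the controls and a log2 change of 0.05 (SE 0.18, adjusted p = 0.959). Hist3h2ba was at 14.1, 26.2 and 34.04 CPM in controls and 16.2, 26.8 and 36.1 CPM in cKO samples. In both genotypes sample 1 was the lowest and sample 3 the highest, and the log2 change was 0.09 (SE 0.35, adjusted p = 0.966). Hist1h2bj was at 0.399, 1.47 and 1.204 CPM in controls and 1.73, 1.499 and 2.59 CPM in cKO samples, without overlap, and its log2 change was 0.92 (SE 0.48, adjusted p = 0.629). Hist1h2bg, at 0.30 (SE 0.68, adjusted p = 0.937), and Hist1h2bb, at 0.04 (SE 0.69, adjusted p = 0.989), had errors larger than their changes. The median of the 11 H2B genes was 0.25, with 10 above 0.

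Among H4 genes, Hist1h4i was at 4.44, 7.60 and 9.06 CPM in controls and 9.06, 9.32 and 10.01 CPM in cKO samples. The cKO samples were close to each other and all above the controls, although control 3 was nearly as high as cKO 1, and the log2 change was 0.43 (SE 0.26, adjusted p = 0.686). Hist1h4d, Hist1h4h and Hist1h4c had log2 changes of 0.15 (SE 0.50, adjusted p = 0.959), 0.16 (SE 0.55, adjusted p = 0.962) and -0.18 (SE 0.55, adjusted p = 0.952). The median of the 6 H4 genes was 0.29, with 5 above 0.

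H1 genes had the lowest median, 0.04 over 5 genes, 3 of them above 0. Hist1h1c was at 6.26, 15.0 and 20.3 CPM in controls and 6.83, 17.9 and 16.6 CPM in cKO samples. Sample 1 of either genotype stood below the other samples, and the log2 change was -0.01 (SE 0.45, adjusted p = 0.993). Hist1h1b, Hist1h1e, Hist1h1d and Hist1h1a had changes of 0.79 (SE 0.52, adjusted p = 0.720), 0.04 (SE 0.40, adjusted p = 0.985), 0.30 (SE 0.45, adjusted p = 0.904) and -0.28 (SE 0.50, adjusted p = 0.925). Members whose cKO values all lay above all control values numbered 4 of the 30 (Hist1h2ad, Hist1h3i, Hist1h2bj and Hist1h4i), where 7.45% of all genes tested did so, and no member showed the opposite. Hist1h2ad and Hist1h3i had at most 10 counts in every control and could pass the filter through their cKO counts alone. That favours such a pattern, so the number describes the 30 members tested and no conclusion is drawn from it.

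**Figure D2:**
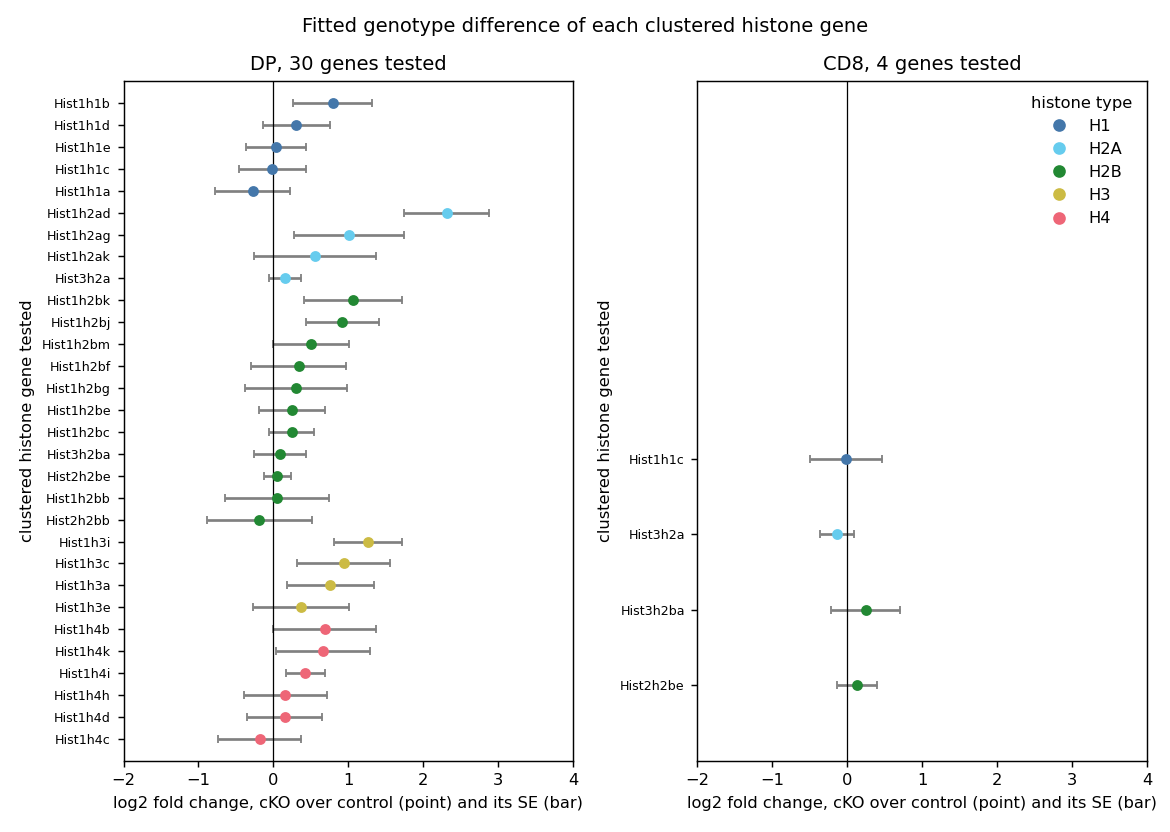
Log2 fold change of cKO over control (points) with its standard error (bars) for each clustered histone gene tested, coloured by type, in DP (left, 30 genes) and CD8 (right, 4 genes). With all samples, 26 of 30 points lie above 0 in DP and none passed the call rule. In CD8 the 4 points lie between -0.14 and 0.24.

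In the plot of fold changes the 3 members with the most DP counts, Hist2h2be, Hist3h2ba and Hist3h2a, lie close to 0.

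In CD8 the same comparison had 4 members. None was called in edgeR, where 11 of all 11227 genes (0.0980%) were, and none had an unadjusted p below 0.05, where 629 genes did. RLE size factors, DESeq2 and the fit with a replicate block gave 0 as well, where they called 11, 46 and 31 of all genes. Hist2h2be was at 18.4, 10.7, 8.88, 7.81 and 7.40 CPM in controls 1 to 5 and 9.60, 7.35, 13.3, 15.3 and 12.6 CPM in cKO samples 1 to 5. Control 1 was the highest of the 10 samples and the groups overlapped, with a log2 change of 0.13 (SE 0.26, adjusted p = 0.983). Hist3h2a was at 9.02, 5.78, 7.76, 7.72 and 9.57 CPM in controls and 8.46, 8.56, 8.32, 6.94 and 3.64 CPM in cKO samples. The lowest of the 10 was cKO 5, the other values overlapped, and the log2 change was -0.14 (SE 0.23, adjusted p = 0.979). Hist3h2ba was at 1.54, 0.653, 1.02, 0.659 and 0.897 CPM and 2.09, 0.346, 1.25, 1.18 and 0.705 CPM, with a log2 change of 0.24 (SE 0.46, adjusted p = 0.980).

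Hist1h1c was at 0.330, 2.33, 2.35, 4.52 and 2.17 CPM in CD8 controls and 3.32, 1.21, 2.85, 2.94 and 1.29 CPM in cKO samples, lowest in control 1 and highest in control 4, with a log2 change of -0.02 (SE 0.48, adjusted p = 0.999). The median log2 change of the 4 was 0.06, against -0.01 over all genes, and it was -0.17 without cKO 1. Without control 1 the filter kept 6 members, with a median of 0.41. Members left out by the filter had few counts: Hist1h4i, for example, had 0, 0, 4, 5 and 13 counts in the controls and 16, 11, 1, 12 and 2 in the cKO samples, and Hist1h2ad 2, 1, 3, 2 and 2 and 0, 1, 1, 2 and 1. Such members were tested in fits without this filter: over 59 members DESeq2 and edgeR without a filter called 0, with 0 and 2 at an unadjusted p below 0.05. Of the 19874 genes in these fits 46 and 14 were called, and 704 and 1385 were below 0.05. The fit of all 4 groups called 0 of 23 members, with 0 below an unadjusted p of 0.05, where 14 of 12131 genes were called and 703 were below it.

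A test of the difference between the changes in CD8 and in DP, over 23 members, called 0, and 0 had an unadjusted p below 0.05, where 13 of all 12131 genes (0.107%) were called and 639 had an unadjusted p below 0.05. RLE size factors, DESeq2 and the fit with a replicate block also called 0 members, where they called 12, 36 and 33 of all genes. DESeq2, over 59 members, had 1 with an unadjusted p below 0.05, where 762 of 20395 genes were below it.

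Set side by side by number, the summed histone level of the DP pairs 1 to 3 differed by 0.31, 0.06 and 0.36 on the log2 scale, cKO over control, a mean of 0.24 ± 0.16 (SD, n = 3). All 3 pairs were higher in cKO, although numbers 2 and 3 did not single out partners across all genes. The difference of the group means was 0.02 without control 1, 0.05 without cKO 3 and 0.43 without cKO 1, each of which leaves a sample without its partner. With a whole pair left out, chosen after seeing the data, it was 0.21 without pair 1, 0.33 without pair 2 and 0.18 without pair 3. Of the 30 members tested, 23, 15 and 24 were higher in the cKO sample of pairs 1, 2 and 3, against 50.6%, 46.8% and 53.0% of all genes.

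By type the DP pairs gave 0.14, 0.11 and -0.06 for H1, 0.63, 0.02 and 0.65 for H2A and 0.03, 0.12 and 0.24 for H2B. H3 gave 1.11, -0.17 and 1.54 and H4 0.95, -0.14 and 0.45. Pairs 1 and 3 carried the differences of H2A, H3 and H4, and pair 2 was near or below 0 in each of them. H1 and H2B pairs stayed within 0.24 of 0.

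The 5 CD8 pairs differed by -0.28, 0.09, 0.22, 0.45 and -0.41 in their summed level, a mean of 0.01 ± 0.36 (SD, n = 5), with 3 pairs higher in cKO. H1 gave 1.09, -0.07, -0.10, -0.26 and -0.74, H2A -0.18, 0.68, -0.03, 0.21 and -1.63, H2B -0.60, -0.47, 0.54, 0.83 and 0.52 and H4 -0.09, 0.28, -1.26, 0.55 and -0.41. For H3, control 2 had no count, and the other pairs 1, 3, 4 and 5 gave -0.01, 1.62, 0.52 and -2.30. Signs were mixed in every type, and the spread between pairs exceeded the mean for H1, H2A, H2B and H4. Across all genes, deviations of same-numbered CD8 samples correlated with r = 0.365, 0.299, 0.318 and 0.313 for numbers 1 to 4. Number 5, at 0.0908, was below the 0.1 asked for, and control 4 with cKO 3 reached 0.421. The CD8 numbers were therefore not taken as pairs, and these are differences between samples that share a number only.

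**Figure D3:**
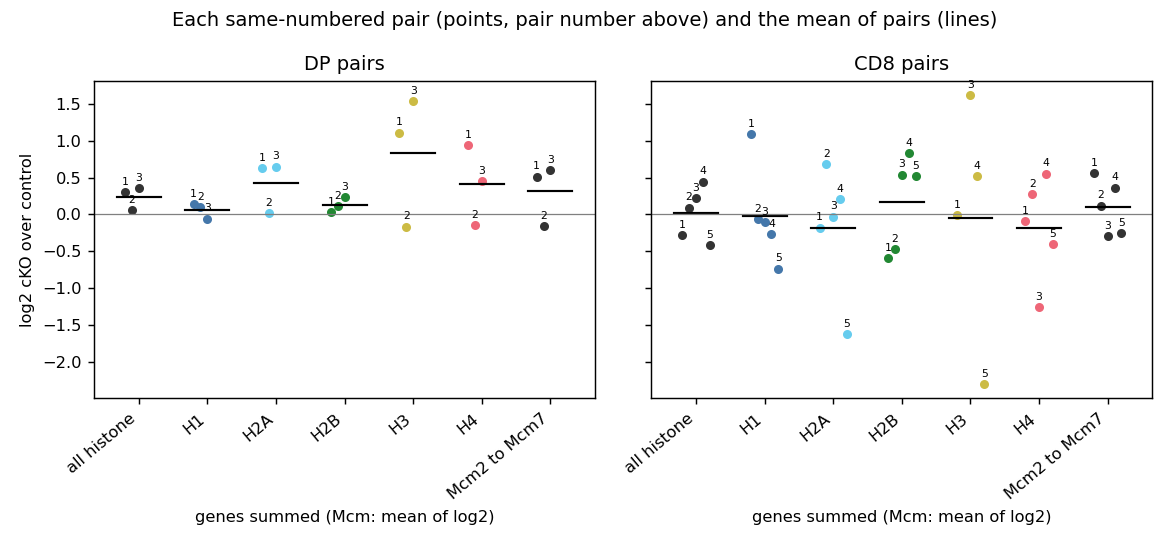
Log2 ratio of cKO over control in each same-numbered pair (points, pair number above each) and the mean over pairs (lines), for all clustered histone genes, each type and Mcm2 to Mcm7. In DP the pairs of all histone genes lie between 0.06 and 0.36, and in CD8 between -0.41 and 0.45.

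Mcm2 to Mcm7 encode the 6 subunits of the helicase that opens DNA at replication forks. Their geometric mean level was 180.2, 239.7 and 178 CPM in DP controls and 258, 214 and 269.9 CPM in DP cKO samples, and 97.3, 141, 143, 139.9 and 171 CPM in CD8 controls and 143, 153, 117, 180.3 and 143 CPM in CD8 cKO samples. In DP, cKO 1 and 3 were above all controls while cKO 2 was below control 2. In CD8 the groups overlapped, with control 1 the lowest. The DP pairs differed by 0.52, -0.16 and 0.60 and the CD8 pairs by 0.56, 0.12, -0.29, 0.37 and -0.25 on the log2 scale. In the plot of pairs, the 3 DP pairs stood in the same order for Mcm2 to Mcm7 and for the summed histone level, pair 3, then 1, then 2, which 3 pairs cannot test. In CD8 pair 1 was the highest for the Mcm genes and the second lowest for histone genes.

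Over samples, the relation of histone to Mcm levels differed with the measure and with the samples kept. In DP the correlation of their log2 levels had a Pearson r of 0.449 and a Spearman rho of 0.200 (n = 6), and 0.299 and 0.257 for deviations from the genotype means. Without controls 1 and 3, the samples farthest from the median Mcm level, r was 0.187 and rho 0.200 (n = 4), and with single samples left out r ranged from 0.0558, without control 1, to 0.705, without cKO 1, so the value rests on single samples. In CD8 r was -0.202 and rho 0.103 (n = 10), -0.213 and -0.0667 for deviations, and -0.209 and 0.0952 without control 1 and cKO 4 (n = 8). Leaving out single CD8 samples moved r from -0.646, without cKO 4, to 0.323, without control 1. With the median over members of log2(CPM + 1) in place of the sum, r was 0.669 in DP and 0.648 in CD8, where it had been below 0. In CD8 that median was 0 in 5 of the 10 samples. These are descriptions over samples that differ in depth as well, given without a test.

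**Figure D4:**
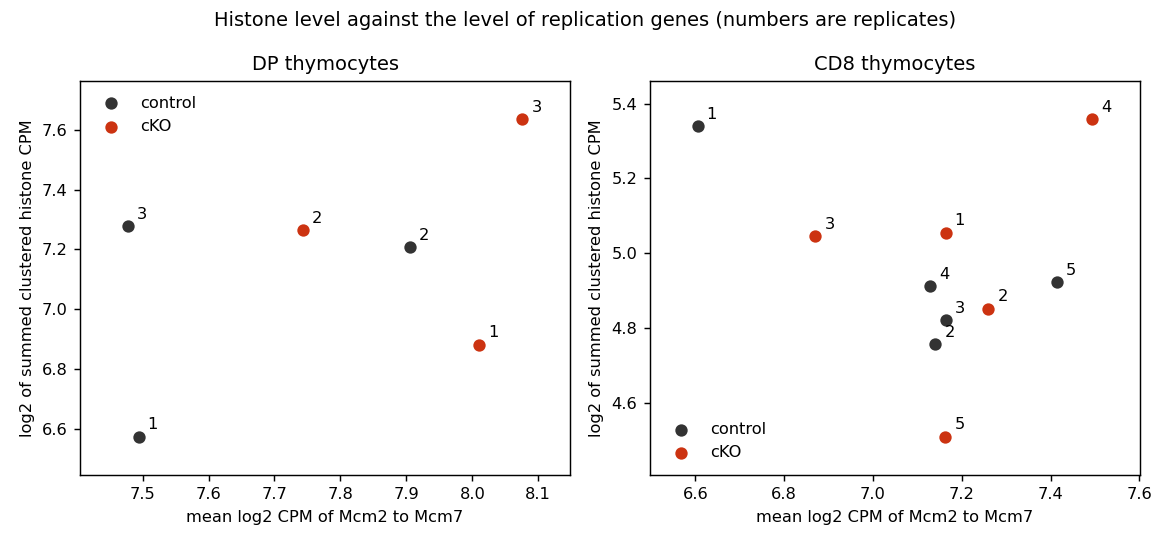
Log2 of the summed clustered histone CPM against the mean log2 CPM of Mcm2 to Mcm7 in every DP (left) and CD8 (right) sample, with replicate numbers, controls in black and cKO in red. Pearson r is 0.449 over 6 DP samples and -0.202 over 10 CD8 samples.

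In the scatter plot DP control 3 had the lowest Mcm level and the second highest histone level, and cKO 1 the second highest Mcm level and the second lowest histone level. 4 other lists were set against the summed histone level in the same way. In DP, the summed level of 11 histone variant genes outside the clusters, such as H2afz, which make polyadenylated RNA, had r = 0.980 and rho = 0.771 (n = 6), and r = 0.953 and rho = 0.200 (n = 4) without both samples numbered 1. RNAs without a poly(A) tail, mostly small nucleolar RNAs, had r = 0.712 and rho = 0.600, which turned to r = -0.613 without the samples number 1. Markers of dividing cells had r = -0.439 and rho = -0.886, and r = -0.899 and rho = -1 (n = 4) without control 3 and cKO 1. In CD8 (n = 10) the values of r were 0.361 for variants, or -0.467 without cKO 4 and cKO 5, -0.764 for RNAs without a tail, or -0.221 without control 1 and cKO 4, and -0.364 for dividing cell markers, or 0.273 without control 1 and cKO 3. The replication list had r = 0.270 in DP, or -0.0882 without controls 1 and 3, and r = -0.336 in CD8, or 0.512 without control 1 and cKO 3. A value whose sign turned in this way rests on the 2 samples left out.

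The genes whose deviations from their group means most resembled those of the summed histone level over the 16 samples, of 12108 ranked, were Pdcd6ip (r = 0.950), Efhd2 (r = 0.949), Grb2 (r = 0.939), Ramp1 (r = 0.925) and Eif2b2 (r = 0.909). Without the samples numbered 1, an alternative chosen after seeing the data, these had r = 0.920 (rank 24), r = 0.901 (rank 56), r = 0.909 (rank 42), r = 0.819 (rank 283) and r = 0.788 (rank 396) over 12 samples. Pdcd6ip, for instance, was at 270.3, 332 and 342 CPM in DP controls and 296, 319.8 and 352 CPM in DP cKO samples, lowest in sample 1 of each genotype, as the histone sum was. The Mcm genes ranked in the middle, from Mcm5 (r = 0.154, rank 4773) to Mcm6 (r = -0.183, rank 7943). Slbp, which encodes the stem-loop binding protein, had r = 0.00479 (rank 6224), and Mki67, a marker of dividing cells, r = -0.737 (rank 11680). Without the samples numbered 1 the Mcm genes ranged from r = 0.0724 (rank 5599) to r = 0.491 (rank 2251), and Slbp had r = 0.0927 (rank 5421) and Mki67 r = -0.306 (rank 8725).

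In the DP fit the 6 Mcm genes had a median log2 change of 0.33, all above 0, with 2 at an unadjusted p below 0.05 and 0 called in edgeR. Mcm5 was at 159.8, 236 and 167 CPM in controls and 245, 216 and 283 CPM in cKO samples, and Mcm7 at 259.9, 341 and 252 CPM and 357, 331 and 405 CPM. In both genes cKO 1 and 3 were above all controls and cKO 2 was below control 2, with log2 changes of 0.40 (SE 0.17, adjusted p = 0.516) and 0.35 (SE 0.14, adjusted p = 0.480). Mcm3, Mcm6, Mcm2 and Mcm4 had log2 changes of 0.40 (SE 0.18, adjusted p = 0.560), 0.31 (SE 0.15, adjusted p = 0.568), 0.31 (SE 0.16, adjusted p = 0.622) and 0.07 (SE 0.14, adjusted p = 0.927). In CD8 their median was 0.09, with 0 at an unadjusted p below 0.05, and the log2 changes ran from 0.02 for Mcm2 to 0.17 for Mcm3.

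Of 50 replication genes tested in DP, 0 were called in edgeR and 10 had an unadjusted p below 0.05, 9 of them with higher levels in cKO, around a median log2 change of 0.26. Pole, a subunit of DNA polymerase epsilon, was at 66.3, 77.2 and 49.98 CPM in controls and 106, 87.5 and 97.9 CPM in cKO samples, all cKO above all controls, with a log2 change of 0.59 (SE 0.17, adjusted p = 0.281). In CD8 edgeR called 0 of the 50, and the median was 0.06. Pcna, the sliding clamp, had a log2 change of 0.12 (SE 0.13, adjusted p = 0.853) in DP and -0.01 (SE 0.13, adjusted p = 0.999) in CD8. Of 22 genes of a proliferation list from the study's methods, which is no independent evidence of a direction, 3 in DP and 1 in CD8 had an unadjusted p below 0.05, with medians of 0.31 and 0.10. This list shares Mcm2 to Mcm6, Pcna and other genes with the replication list. It also shares Mki67, Top2a and Ccnb1 with the dividing cell markers and H2afz with the variants, so these medians are not separate observations. Mybl2, at 0.70 (SE 0.17, adjusted p = 0.220) in DP, had an adjusted p of 0.0241 in DESeq2.

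Genes of histone RNA processing showed 0 of 20 at an unadjusted p below 0.05 in either cell type, with medians of 0.04 in DP and 0.05 in CD8. Slbp was at 97.0, 114 and 80.6 CPM in DP controls and 127, 82.6 and 96.6 CPM in DP cKO samples, overlapping groups with a log2 change of 0.07 (SE 0.19, adjusted p = 0.947), and in CD8 its change was -0.11 (SE 0.14, adjusted p = 0.979). The smallest p of this list belonged to Lsm1 in DP, -0.27 (SE 0.15, adjusted p = 0.652), and to Cstf2 in CD8, 0.14 (SE 0.08, adjusted p = 0.966). Histone variants had 0 of 10 in DP and 0 of 9 in CD8 below an unadjusted p of 0.05, with medians of 0.26 and -0.02. H2afz, the gene of H2A.Z, was at 279, 376 and 284 CPM in DP controls and 395, 347 and 435 CPM in DP cKO samples, with a log2 change of 0.32 (SE 0.15, adjusted p = 0.559). Its control 2 lay above cKO 2. In CD8 the smallest p was that of H2afv, -0.27 (SE 0.18, adjusted p = 0.979).

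Of 16 histone chaperones, 2 in DP had an unadjusted p below 0.05, both higher in cKO, with the smallest p at the importin Ipo4, 0.49 (SE 0.15, adjusted p = 0.345), and 0 in CD8, where Chaf1b, at 0.22 (SE 0.12, adjusted p = 0.959), had the smallest p. Medians were 0.07 and 0.03. RNAs without a poly(A) tail pointed the other way in DP: 55 tested genes had a median of -0.29, with 3 at an unadjusted p below 0.05, all lower in cKO, with the smallest p at Snord73a, -1.29 (SE 0.39, adjusted p = 0.322). In CD8 29 of them had a median of -0.28, with 1 below an unadjusted p of 0.05, Snord95 at -0.86 (SE 0.30, adjusted p = 0.621). edgeR called 0 genes of the histone RNA processing, variant, chaperone, proliferation and no-tail lists in either genotype comparison.

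Between the DP genotypes edgeR called 0 genes of the marker lists. Of 9 CD8 single-positive markers 4 had an unadjusted p below 0.05, all lower in cKO. Cd8a, 1 of the 4, and Cd8b1 belong to the DP markers as well, so the 2 lists are not independent. Ccr7 was at 30.9, 20.2 and 16.8 CPM in controls and 11.2, 11.1 and 10.01 CPM in cKO samples, all cKO below all controls, with a log2 change of -1.07 (SE 0.23, adjusted p = 0.133). It was called in DESeq2 (adjusted p = 0.00238) and in edgeR with the replicate block (adjusted p = 0.0240). Of 5 myeloid markers 3 were lower and 1 higher at an unadjusted p below 0.05, with Lyz2 at -1.65 (SE 0.44, adjusted p = 0.243), called in DESeq2 (adjusted p = 0.00568). The 5 myeloid markers summed to 31.3, 50.1 and 28.3 CPM in DP controls and 28.9, 28.2 and 31.2 CPM in DP cKO samples, highest in control 2, with Lyz2 the most abundant in controls (11.8 CPM on average) and Cd68 in cKO samples (12.2 CPM). Of 8 DP markers 1 was lower at an unadjusted p below 0.05, Cd8a at -0.45 (SE 0.14, adjusted p = 0.328), and the 1 thymic epithelium marker tested, Epcam, had -0.60 (SE 0.29, adjusted p = 0.592). Of 3 B cell markers tested Ms4a1 had -1.68 (SE 0.65, adjusted p = 0.456). Of the 5 markers of dividing cells Top2a had the smallest p, with 0.35 (SE 0.21, adjusted p = 0.677) in DP and 0.36 (SE 0.20, adjusted p = 0.954) in CD8. Their levels summed to 1256, 1231 and 748 CPM in DP controls and 2208, 1179 and 1131 CPM in DP cKO samples. The part of such cells in the histone levels was not tested.

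In CD8 edgeR also called 0 genes of the marker lists between the genotypes. Cd68, 1 of 2 myeloid markers tested, had an unadjusted p below 0.05, with a log2 change of 0.52 (SE 0.20, adjusted p = 0.753). DESeq2 gave an adjusted p of 0.689 and the fit with a replicate block 0.297. The 5 myeloid markers summed to 21.2, 18.5, 13.7, 14.0 and 13.3 CPM in CD8 controls and 26.1, 34.1, 16.3, 14.7 and 19.9 CPM in CD8 cKO samples, and all 5 same-numbered pairs were higher in cKO, by 0.30, 0.88, 0.25, 0.07 and 0.58 on the log2 scale. Cd68 was the most abundant, at 12.9 CPM in controls and 18.4 CPM in cKO samples on average, and no myeloid marker was at 0 in a whole group. Their part in the CD8 histone levels was not tested.

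The largest difference lay between the cell types. In the controls, 18 of 23 members tested were called between CD8 and DP, all of them lower in CD8, where 44.1% of all 12131 genes were called and 22.9% were lower in CD8. Their median log2 difference was -2.74, against -0.03 over all genes, and 1 of the 23 lay above 0. By type, 5 of 5 H1, 2 of 2 H2A, 8 of 8 H2B, 0 of 2 H3 and 3 of 6 H4 genes were called, and both H3 genes and 5 of the 6 H4 genes had differences below 0. For 18 members every CD8 control lay below every DP control, which held for 29.3% of all genes. A member can pass the filter through its DP counts alone, which favours members that are lower in CD8, so the counts describe the 23 members tested and not all 69. Without the filter edgeR called 20 of 59 members, all lower in CD8, and 5273 of 20395 genes, with a median over members of -1.83 and 11 above 0. DESeq2 called 19 of the 59, all lower in CD8, and 5317 genes, with a median of -1.93 and 11 above 0. Cell type and count table go together here, and a difference between the cells and one between the 2 sets of libraries cannot be told apart.

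Of the members tested Hist3h2ba had the largest fitted fall, from 24.8 ± 10.1 (SD, n = 3) CPM in DP controls to 0.954 ± 0.363 (SD, n = 5) CPM in CD8 controls, a log2 difference of -4.71 (SE 0.39, adjusted p = 9.44e-09). Its neighbour Hist3h2a fell less, from 23.1 ± 6.86 (SD, n = 3) CPM to 7.97 ± 1.46 (SD, n = 5) CPM, a log2 difference of -1.53 (SE 0.23, adjusted p = 1.58e-05). Hist2h2be, at 26.4 ± 6.23 (SD, n = 3) CPM and 10.6 ± 4.51 (SD, n = 5) CPM, had the smallest fall of the called members, -1.32 (SE 0.26, adjusted p = 2.49e-04). Hist1h4i, at 7.03 ± 2.36 (SD, n = 3) CPM and 0.370 ± 0.402 (SD, n = 5) CPM, fell by 4.11 on the log2 scale (SE 0.59, edgeR adjusted p = 9.75e-06). Its CD8 counts were few, 0, 0, 4, 5 and 13 in controls 1 to 5, and without control 5 the fitted log2 difference was -4.90, so the size rests on few reads. It was called in all 8 fits with 1 control left out. Hist1h1c fell by 2.55.

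Hist1h1a, Hist1h4h, Hist1h4c and Hist1h2bb also belonged to the 6 largest fitted falls. All 4 rest on few CD8 reads, so that no fold is given for them. Hist1h1a had 0, 0, 4, 1 and 1 counts in CD8 controls 1 to 5 against 13, 59 and 41 in DP controls 1 to 3, and Hist1h4h had 0, 0, 3, 1 and 0 counts in CD8 controls 1 to 5 against 14, 31 and 21 in DP controls 1 to 3. Hist1h2bb had 0, 0, 2, 0 and 0 counts in CD8 controls 1 to 5 against 5, 24 and 8 in DP controls 1 to 3, and Hist1h4c had 0, 1, 1, 0 and 0 counts in CD8 controls 1 to 5 against 10, 20 and 20 in DP controls 1 to 3. H3 genes were lower without a call, with Hist1h3a at -1.88 (SE 0.83, adjusted p = 0.0597) and Hist1h3c at -1.81 (SE 0.92, adjusted p = 0.0958). Hist2h4 was the 1 member of the 23 with a log2 difference above 0, from 5, 5 and 5 counts in DP controls and 14, 9, 3, 2 and 6 in CD8 controls, a log2 difference of 1.204 (SE 0.75, adjusted p = 0.177). Without CD8 control 1 it did not pass the filter, and 0 of the 22 members tested had a difference above 0.

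**Figure D5:**
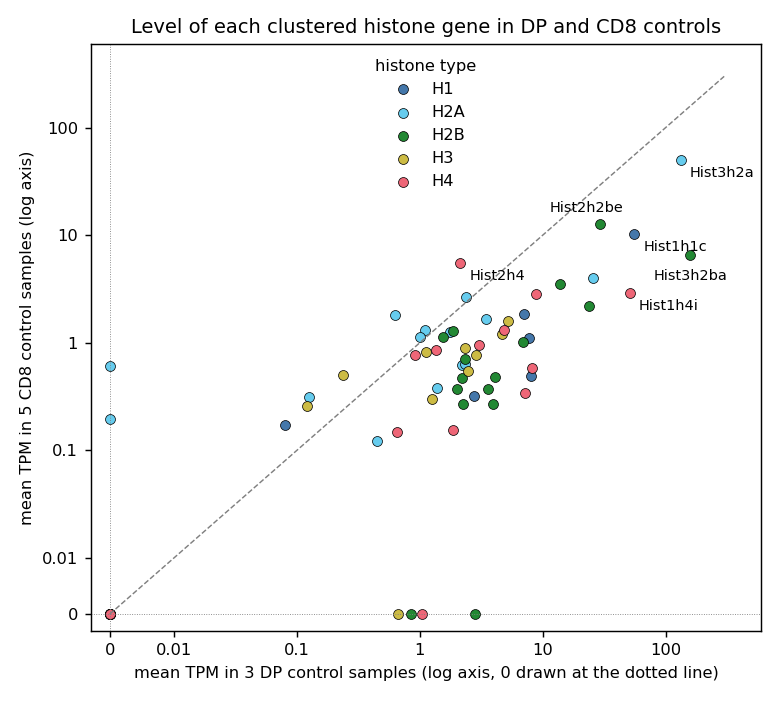
Mean TPM of each of the 69 clustered histone genes in 3 DP controls and 5 CD8 controls, on log axes with 0 drawn at the dotted lines and equality dashed, coloured by type. Most points lie below the dashed line, among them Hist3h2ba at 157 TPM in DP and 6.53 TPM in CD8.

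The plot of DP against CD8 levels shows how far the members spread: Hist3h2a and Hist2h2be kept the highest CD8 levels, while Hist3h2ba and Hist1h4i were far below the dashed line. Replication genes had smaller median differences between the cell types. Of all 12131 genes tested 44.1% were called and 22.9% were called lower in CD8. No conclusion is drawn from the number of Mcm genes called beside that share. Of Mcm2 to Mcm7, 3 were called, all lower in CD8, with a median of -0.50: Mcm7 at -0.997 (SE 0.15, adjusted p = 2.14e-05), Mcm2 at -0.70 (SE 0.19, adjusted p = 0.00344) and Mcm5 at -0.60 (SE 0.18, adjusted p = 0.00815). Of the 50 replication genes 30 were called, 28 of them lower, with a median of -0.66. Slbp was lower at -0.73 (SE 0.17, adjusted p = 0.00130).

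Histone variants outside the clusters were lower in CD8 as well, 9 of 10 called, with a median of -1.79, among them H2afz at -2.30 (SE 0.17, adjusted p = 2.92e-09). Of the 5 dividing cell markers 4 were called, all lower. Markers of other cell types differed too: of 5 myeloid markers 4 were called, 3 lower and 1 higher, with a median of -2.55. The 1 thymic epithelium marker tested was called lower, at -1.90, and of 4 B cell markers 1 was called, lower in CD8. The part of such cells in the histone difference was not tested. RNAs without a poly(A) tail moved in both directions, with 15 of 54 called, 5 higher and 10 lower, and a median of -0.35. Beside all these counts, 44.1% of all 12131 genes tested were called, and the few markers of a cell type make their counts coarse. The summed level of this list was 86.3, 138 and 150.3 CPM in DP controls and 83.9, 93.1, 105, 98.6 and 97.5 CPM in CD8 controls. DP control 1 lay within the range of the CD8 controls, while its summed histone level was above all of them.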

How the data were processed

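The data were RNA-seq libraries of mouse thymocytes, 16 samples in all. The authors trimmed reads with fastp 0.13.1, aligned them to mm10 with HISAT2 2.1.0 and counted them per gene with featureCounts 1.6.1, and the deposited values are these counts, integers in 1 table for DP and 1 for CD8. The counts were compared with edgeR 4.0.16 (TMM, filterByExpr, quasi-likelihood F test) in R 4.3.3 over all genes of a table, with Benjamini-Hochberg adjustment over all genes tested. The difference of the changes and CD8 against DP used 1 fit of all 4 groups on the 24974 shared genes. Standard errors are the log2 change over the square root of F. Sums, correlations and sequences used Python 3.11.15. The fit was tested on simulated data.

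Members and lists (replication, histone RNA processing, histone variants, chaperones, proliferation, RNAs without a poly(A) tail, cell markers) were chosen with earlier results of these data known. Genes were named by a rule: the 3 members of each type with the highest mean TPM, the 4 members with the smallest p in each genotype comparison, at most 6 called members in each direction, the smallest p of each list, Tox4, Mcm2 to Mcm7, Pcna, Slbp and the 5 genes most like the summed histone level. Others were named after their values were seen. 2 genes under this rule are not reported here. Across all genes, deviations of same-numbered DP samples correlated with r = 0.643, 0.120 and 0.290, each over the 0.1 asked for, so the numbers were taken as pairs. DP samples with different numbers reached 0.324, for control 2 and cKO 3, and 0.297, for control 3 and cKO 2. CD8 samples, at 0.365, 0.299, 0.318, 0.313 and 0.0908, did not meet the rule. Alternatives were RLE size factors, DESeq2 1.42.0, other filters and call rules, the replicate block and leaving out samples.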

Additional observations from a re-analysis of the deposited data

Results flagged for a closer look

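In groups of 5 CD8 samples, a value was taken to stand apart when its gap to the nearest other sample exceeded 0.71 of the range of the group. Of 62 groups of values looked at in this way 3 held such a sample, where chance gives about 1 in 20. CD8 control 1 had counts in 17741 genes, against 13708 to 14194 in the other controls (gap over range 0.879). The same library had the highest summed histone level of the CD8 controls, 40.5 CPM against 27.0 to 30.4 CPM (0.754). CD8 cKO 5, the library with the fewest counts, had 4.23 CPM of H2A genes, against 10.6 to 11.8 CPM in the other cKO samples (0.846). What set these values apart was not tested.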

How the results depend on the processing

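No clustered histone gene was called in DP, in CD8 or in the difference between them under any alternative run with edgeR or DESeq2, while up to 5, 2 and 4 members had an unadjusted p below 0.05, each without a filter on low counts. These are of 58, 59 and 59 members, where 1354 of 16897, 1385 of 19874 and 923 of 20395 genes were below it. With the replicate block the median log2 change of the members was 0.35 in DP and 0.09 in CD8, against 0.32 and 0.06, and no member was called. Between the cell types 17 to 20 members were called with 1 sample left out. Asking for at least 10 counts in every sample left 2 members, both called, as fewer genes were tested.

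The log2 difference in the summed DP level, 0.24, lay between 0.0185 (without control 1) and 0.432 (without cKO 1), with 0.05 without cKO 3, and between 0.18 and 0.33 with a whole pair left out. The CD8 correlation with Mcm2 to Mcm7 was 0.648 when the median over members of log2(CPM + 1) replaced the sum, against -0.202, and the cause was not tested. With 1 sample left out the median was 0.06 to 0.64 in DP and -0.17 to 0.41 in CD8, the CD8 sum -0.09 to 0.13, and the correlations 0.0558 to 0.705 in DP and -0.646 to 0.323 in CD8. Without both samples numbered 1, chosen after seeing the data, the medians were 0.32 and -0.15 and 19 of 28 members were called between cell types.

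Over all genes, 0 to 8 were called in DP with 1 sample left out, against 17, and 4 to 20 in CD8, against 11. With the replicate block 131 were called in DP and 31 in CD8, and DESeq2 called 160 and 46. Of the named genes, 21 of 54 in DP and 14 of 35 in CD8 changed sign in at least 1 alternative, and none was called where its sign changed. Ccr7 was called in DP by DESeq2 and with the block, and Lyz2 and Mybl2 by DESeq2. A replicate block for CD8 against DP was not possible, since blocks lie within a cell type. In CD8 the filtered edgeR fit tested 4 of 69 members. Poly(A) capture and reads shared between copies limit what the counts say of total histone RNA.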
